A study of Mus musculus with 8 samples.

Results

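Cluster 5 is the set of cells that the authors numbered 5 among the 12 clusters (numbered from 0) of a single-cell RNA-seq study of cultured mouse preadipocytes, the precursor cells of fat. Its members here were the genes that the authors' table of cluster markers lists for that cluster. There were 1057 such entries among 13337 in the whole table, which covers 3903 gene symbols. Each entry gives the share of cells with at least 1 transcript of the gene detected, once for the cells of cluster 5 and once for the cells of the other 11 clusters together. These shares, called detection below, are the only values used.

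The cells came from inguinal white adipose tissue of C57BL/6 mice aged 8 to 12 weeks and were grown on collagen-coated plates. Wild type (WT) cells were studied beside cells lacking both Hmgn1 and Hmgn2 (Hmgn1-/- and Hmgn2-/-, DKO), which encode chromatin proteins that bind nucleosomes. Each genotype was captured at day 0, before induction, and at day 6 of a browning protocol that gave insulin, dexamethasone, IBMX, T3 and rosiglitazone to both genotypes, followed by insulin and T3. This made 4 groups (WT day 0, WT day 6, DKO day 0 and DKO day 6) of 2 samples, 8 in all. The DKO cells carry the deletion in every cell type, and the cultures are primary cells that were expanded before induction. The table pools the cells of all 8 samples, so it holds no value for a genotype, a day or a sample. For that reason no value has a replicate, an SD or a test, and every comparison is a description. A gene is listed for a cluster only where it passed the authors' minimums, so a gene without an entry is not a gene at 0, and a listed gene had to differ from the other cells. The paper gives targets for read depth and cell recovery, but the depth and the number of cells per cluster are unknown. The fractions were deposited in steps of 0.1 percentage points.

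A dividing cell copies its DNA in S phase. Origins are first loaded with the ring-shaped MCM helicase, which is then switched on by CDC45 and the GINS complex, after which polymerases held on the DNA by the PCNA clamp copy both strands while ribonucleotide reductase supplies the building blocks and new histones wrap the copies. In G2 and M phase the same cell condenses its chromosomes, builds a spindle and divides, with another set of genes. Preadipocytes in culture divide until they become confluent, and some divide again after hormonal induction before they fill with lipid.

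Cluster 5 held 8.81% of all cells, as solved from the detection values, beside 7.46% for cluster 6 and 5.8% for cluster 9. These 3 clusters, each of which listed cell cycle genes, made up 22.1% of the cells. The cells of clusters 6 and 9 are therefore part of the other cells against which cluster 5 was listed. The 1057 genes had a median detection of 80.2% inside cluster 5 and 52.5% outside it. The difference was at least 10 percentage points upward for 762 genes (72.1%) and at least 10 points downward for 62 genes (5.87%). It reached 50 points for 58 genes. Just inside the 10-point limit stood Junb, an AP-1 transcription factor gene, with 92.8% against 82.8%, and just outside it Nid1, a basement membrane gene, with 93.2% against 83.3%.

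The genes used to label the cluster were found in it at high detection. Pclaf, which encodes a factor bound to the PCNA clamp, was detected in 92.0% of cluster 5 and 17.3% of the other cells, the largest difference of the 1057 entries. It stood at 91.6% in cluster 6 and 83.8% in cluster 9, and between 2.6% and 12.2% in the 7 remaining clusters that list it. Hist1h1b, a linker histone gene transcribed with DNA replication, was detected in 91.5% of cluster 5 and 27.8% of the other cells. It stood at 92.5% in cluster 6, 53.7% in cluster 9 and 10.2% to 41.2% in the 7 other clusters with an entry. Pclaf and Hist1h1b were thus frequent in cluster 5, but neither told it from cluster 6, where their detection differed by 0.4 and -1.0 percentage points.

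Promoters of 4 genes with which the values below can be read are shown, because they represent the groups that the comparisons turn on: Pclaf and Hist1h1b as markers, Mcm3 as a helicase subunit and Cdca3 as the mitotic gene with the lowest detection relative to cluster 9. Each runs 5′ to 3′ on the gene's own strand, from 250 bases before the transcription start to 50 after it (RefSeq, GRCm38.p6). Pclaf lies on the plus strand at chr9:65890073-65890372, Hist1h1b (RefSeq symbol H1f5) on the minus strand at chr13:21780576-21780875, Mcm3 on the minus strand at chr1:20820263-20820562 and Cdca3 on the plus strand at chr6:124829926-124830225. Capitals mark matches, on either strand, to the E2F words TTTCCCGC, TTTGGCGC, TTTCGCGC and TTTGCCGC, to CCAAT (bound by NF-Y), and to TTTGAA, the word of the cell cycle homology region.
Pclaf: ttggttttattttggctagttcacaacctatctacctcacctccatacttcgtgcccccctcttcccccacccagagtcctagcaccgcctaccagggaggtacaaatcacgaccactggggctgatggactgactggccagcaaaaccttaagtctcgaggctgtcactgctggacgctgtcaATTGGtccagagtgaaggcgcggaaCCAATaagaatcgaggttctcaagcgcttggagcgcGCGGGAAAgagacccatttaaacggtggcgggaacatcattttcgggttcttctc
Hist1h1b: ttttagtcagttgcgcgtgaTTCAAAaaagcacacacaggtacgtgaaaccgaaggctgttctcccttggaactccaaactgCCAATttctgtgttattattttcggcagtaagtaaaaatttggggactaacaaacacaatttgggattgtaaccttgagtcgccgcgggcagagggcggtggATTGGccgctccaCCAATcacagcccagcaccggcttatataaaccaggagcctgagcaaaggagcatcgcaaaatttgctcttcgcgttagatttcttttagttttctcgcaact
Mcm3: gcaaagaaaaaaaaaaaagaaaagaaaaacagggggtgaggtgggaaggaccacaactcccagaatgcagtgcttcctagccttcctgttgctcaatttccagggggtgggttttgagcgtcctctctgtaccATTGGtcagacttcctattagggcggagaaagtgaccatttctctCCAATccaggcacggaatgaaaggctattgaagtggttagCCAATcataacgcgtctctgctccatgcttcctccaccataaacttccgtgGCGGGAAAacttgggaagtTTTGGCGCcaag
Cdca3: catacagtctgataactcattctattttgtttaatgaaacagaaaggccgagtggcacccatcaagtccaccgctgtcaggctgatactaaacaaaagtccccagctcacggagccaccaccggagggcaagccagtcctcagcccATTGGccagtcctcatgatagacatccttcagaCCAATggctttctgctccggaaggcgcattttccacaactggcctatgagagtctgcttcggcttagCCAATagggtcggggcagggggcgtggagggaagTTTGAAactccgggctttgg

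The Pclaf window held 1 E2F word and 2 CCAAT words, and that of Mcm3 held 2 E2F and 3 CCAAT words. The windows of Hist1h1b and Cdca3 each held 3 CCAAT words and 1 TTTGAA, and no E2F word. Over all 32851 promoters of this length, 2.26% held an E2F word, 37.4% CCAAT and 17.9% TTTGAA. Among the genes of the G2 and M phase list described below, 32 of 38 had a promoter sequence. Of their 35 promoters, 24 (68.6%) held CCAAT, 24 (68.6%) held TTTGAA and 2 (5.71%) held an E2F word. The same count is void for the S phase list, where only 28 of 39 genes had a sequence, and for the genes detected in at least 10 points more cells, where 602 of 762 had one. None of the words contains another on either strand, the matches printed do not overlap, and a match describes a sequence, not a site in use.

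**Figure D1:**
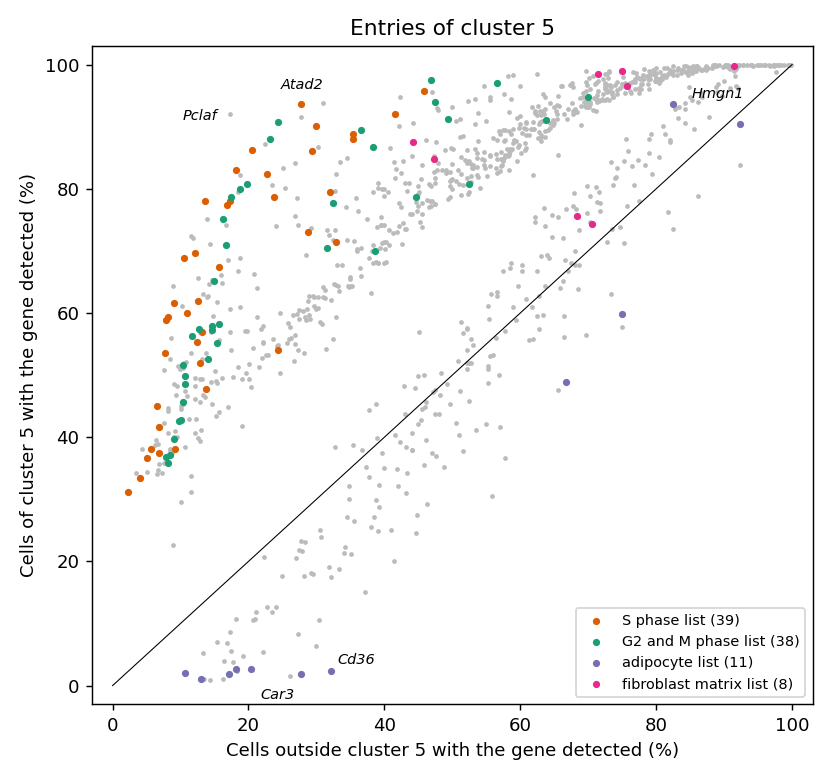
Detection of the 1057 listed genes inside cluster 5 (vertical axis, percent of cells) against the cells outside it (horizontal axis, percent of cells), 1 point per gene, with 4 gene lists in colour and a line of equal detection. The S phase and the G2 and M phase genes lie above the line, most of them at the left, and Cd36 and Car3 lie at the bottom, below 3% inside the cluster.

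The 15 genes with the largest difference in detection covered DNA copying as well as division. Besides Pclaf and Hist1h1b, they held Rrm2, the small subunit of ribonucleotide reductase (86.2% in cluster 5, 20.5% in other cells), Mcm3 (87.2%, 22.5%), Gmnn, which encodes the licensing inhibitor geminin (83.1%, 18.2%), Clspn, a fork checkpoint adaptor (78.0%, 13.6%), Lig1, the ligase that joins lagging-strand pieces (82.2%, 18.8%), and the chromatin ATPase gene Atad2 (93.6%, 27.7%). Of the division genes, Top2a, which untangles DNA, was at 90.7% and 24.3%, the mitotic kinase gene Cdk1 at 88.0% and 23.1%, and the condensin subunit gene Smc2 at 93.8% and 30.9%. Mki67, a coat protein of mitotic chromosomes, was at 78.6% and 17.5%, Birc5 (survivin) at 79.9% and 18.7% and the spindle factor gene Tpx2 at 80.7% and 19.8%. The remaining gene was the core histone gene Hist1h2ap, at 75.1% and 13.9%.

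With clusters 6 and 9 taken out of the other cells, the detection left outside must fall for genes frequent in those clusters. It can be given only for genes listed for all 3 clusters, which leaves out Atad2, Gmnn, Mcm3, Clspn and Lig1. Pclaf was then detected in 5.30% of the cells outside the 3 clusters, Mki67 in 4.95%, Birc5 in 6.34%, Hist1h2ap in 6.52%, Tpx2 in 8.13%, Rrm2 in 10.6%, Cdk1 in 12.7%, Top2a in 13.5%, Hist1h1b in 19.7% and Smc2 in 20.2%. Over the 408 genes listed for all 3 clusters, the median detection was 87.2% in cluster 5, 57.5% in all other cells and 56.1% outside the 3 clusters. At least 10 points more were counted for 308 of them against all other cells and for 318 outside the 3 clusters, and at least 10 points fewer for 21 and 13.

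The other cells also held clusters 4 and 10, 12.8% of all cells, whose entries had a median detection of 10.8% and 8.1% inside them. For the 262 genes listed for clusters 4, 5 and 10, the median was 79.2% in cluster 5 and 60.7% in all other cells, and it was 66.8% once clusters 4 and 10 were left out. The median difference per gene moved from 9.1 to 2.31 points. The number detected in at least 10 points more of cluster 5 moved from 124 to 87, and the number in at least 10 points fewer from 40 to 52. For the 762 genes as a whole the value without clusters 4 and 10 is not given, since most have no entry there.

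Genes of DNA replication formed a clear group, though the 7 listed members of a proliferation list had a larger median difference, 61.1 points. Of the 43 genes on an S phase list, 39 were in the table and those 39 were listed for cluster 5, with a median detection of 67.4% inside it and 13.6% outside. The differences ran from 28.8 to 65.9 percentage points with a median of 49.9, beside 25.9 for the 1057 entries, and 39 of 39 reached 10 points where 72.1% of the entries did. The list describes genes that helped to form the cluster, so the count is no separate evidence.

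These genes were mostly listed for cluster 6 too but seldom for cluster 9. Cluster 6 listed 36 of the 39, where it listed 59.7% of all entries of cluster 5, and cluster 9 listed 5, where it listed 61.1%. The 3 genes listed for cluster 5 and for neither of those were Chaf1b, a subunit of the chromatin assembly factor (58.8% in cluster 5, 7.9% in other cells), Dscc1, which helps load the clamp (31.1%, 2.3%), and Ubr7 (54.1%, 24.4%). The 5 listed for all 3 were Gins2, Rrm1, Rrm2, Tyms and Usp1. Since a gene of middling detection can miss the authors' minimum, an absent entry in cluster 9 bounds no level. In cells outside clusters 5 and 6, the genes listed for both had a median detection of 10.1%.

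The genes that load and drive the replicative helicase were next. Of 23 listed, 15 were in the table and 14 were listed for cluster 5, with a median difference of 53.3 points. The MCM subunits ran from 67.4% for Mcm2 (15.6% in other cells) through 69.6% for Mcm5 (12.2%), 78.7% for Mcm4 (23.8%), 80.2% for Mcm7 (25.4%) and 82.4% for Mcm6 (22.8%) to 87.2% for Mcm3 (22.5%). The loader gene Cdc6 was at 33.4% and 4.1%, Mcm10, which helps start the fork, at 34.4% and 5.1%, Cdc45 at 41.7% and 6.8% and the origin recognition subunit Orc6 at 84.9% and 34.5%. So all 6 MCM subunits were detected in over 3 times as large a share of cells inside as outside. The same held for the starters Cdc6, Mcm10 and Cdc45, which were seen in a smaller share of cells both inside and outside. Cdc7, the kinase that fires origins, was the member listed for cluster 6 and not for cluster 5, whereas its partner Dbf4 was at 66.2% in cluster 5, 62.4% in cluster 6 and 78.3% in cluster 9.

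Some of the helicase genes were more frequent in cluster 5 than in cluster 6. Of the 631 genes listed for both, 178 (28.2%) were detected in at least 10 points more cells of cluster 5 and 144 (22.8%) in at least 10 points fewer, with a median of 0.5. Of 13 helicase genes, 3 were higher in cluster 5 by that measure and none lower, with a median of 6.1 points. They were Gins2, a subunit of the GINS complex (78.0% and 58.5%), Mcm2 (67.4% and 49.8%) and Mcm3 (87.2% and 77.0%). Gins2 was at 56.4% in cluster 9. A share of 3 in 13 is near the 28.2% of all genes compared.

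For the polymerases, the clamp and lagging-strand enzymes, 19 of 28 genes were listed for cluster 5, each in at least 10 points more cells, with a median of 43.3. Pcna, the clamp itself, was at 95.8% in cluster 5 and 45.9% in other cells. Primase and polymerase alpha start each strand, and Prim1 was at 60.0% and 10.9% and Pola1 at 57.0% and 13.2%. Fen1, the flap nuclease of the lagging strand, was at 62.0% and 12.6%. In 16 of the 17 genes also listed for cluster 6 the 2 clusters lay within 10 points of each other. The exception was Rfc3, a subunit of the clamp loader, at 68.6% and 55.1%. Of all genes compared with cluster 6, 28.2% were at least 10 points higher in cluster 5 and 22.8% lower.

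Genes of deoxynucleotide supply were listed for cluster 5 in 12 of 18 cases, with a median difference of 45.0. Rrm1, the large subunit of ribonucleotide reductase, was at 90.1% in cluster 5 and 30.0% in other cells. Tyms, thymidylate synthase, was at 86.1% and 29.3% and thymidine kinase 1 (Tk1) at 72.1% and 11.9%. None of the 10 genes shared with cluster 6 differed by 10 points. Of all genes compared with cluster 6, 28.2% were higher in cluster 5 by that measure and 22.8% lower. Of the 8 shared with cluster 9, 3 were at least 10 points more frequent in cluster 5, where 1.86% of the 646 genes listed for clusters 5 and 9 were, and the median was 9.2 points upward. Among them, Dut, which removes dUTP, was at 95.6% and 82.6%, and Rrm2 at 86.2% and 73.2%.

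Fork protection and DNA repair genes were listed for cluster 5 in 19 of 38 cases, with a median difference of 36.2. The fork protection gene Tipin was at 88.0% in cluster 5 and 35.4% in other cells. Of 16 genes shared with cluster 6, 4 were detected in fewer cells of cluster 5 by at least 10 points and none in more, with a median of -6.7. The 4 in 16 are near the 22.8% of all genes compared. Brca1 was at 38.7% and 50% in clusters 5 and 6, and Brca2, which acts in recombination, at 46.1% and 61.2%. Usp1, a deubiquitinase of the Fanconi pathway, was the only gene of this list that cluster 9 shared with cluster 5, at 74.8% and 88.9%.

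**Figure D2:**
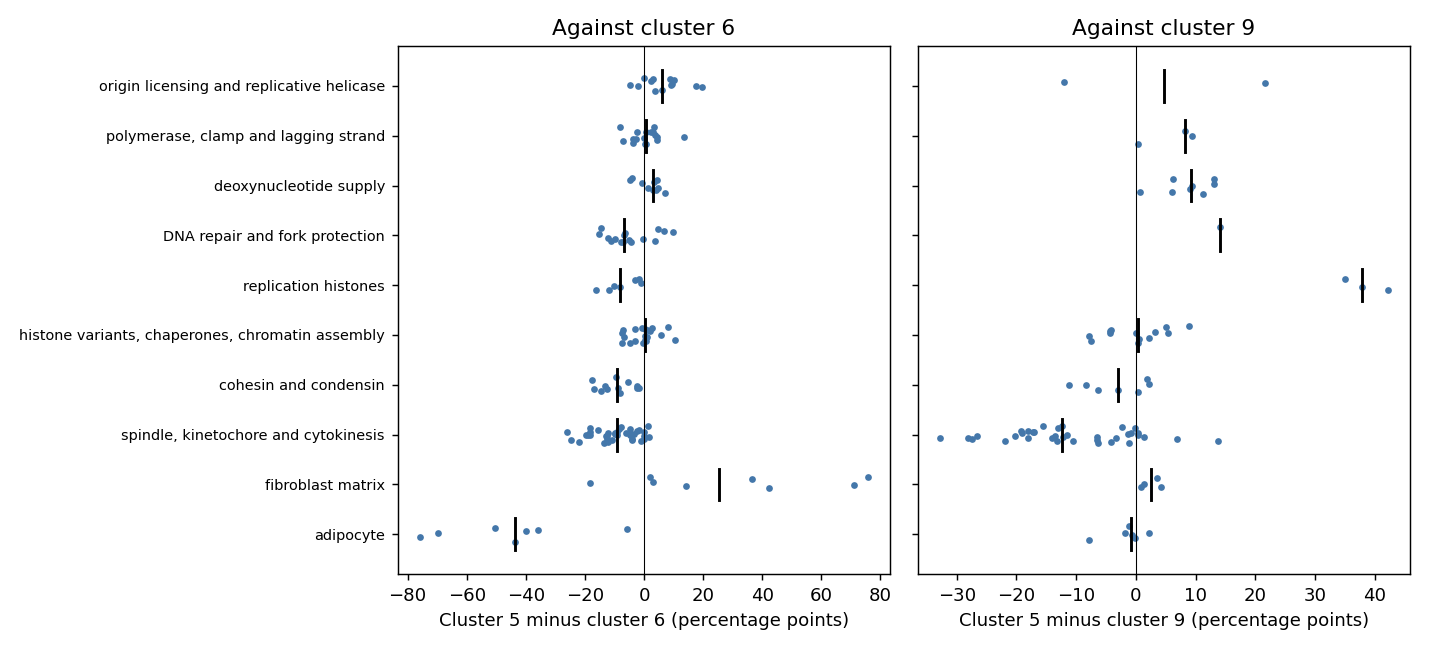
Difference in detection between cluster 5 and cluster 6 (left) and between cluster 5 and cluster 9 (right), in percentage points, for 10 lists of genes arranged by role, 1 point per gene listed for both clusters, with a bar at each list's median. The replication histone points against cluster 9 lie between 35.0 and 42.2, and the spindle list has a median of -9.3 against cluster 6 and -12.3 against cluster 9. The scales of the panels differ.

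Histone genes showed the widest gap from cluster 9. Replication-dependent histone messages mostly end in a stem-loop and not in a poly(A) tail, so a poly(A)-based capture takes few of them, and the many near-identical copies make the counts of single genes uncertain. Of 62 such genes, 14 were in the table and 7 were listed for cluster 5. Hist1h2ap was at 75.1% in cluster 5, 76.8% in cluster 6 and 32.9% in cluster 9, Hist1h1b at 91.5%, 92.5% and 53.7%, and the linker histone gene Hist1h1e at 84.2%, 92.5% and 49.2%. These were the 3 genes with the largest excess over cluster 9 among the 646 listed for both, of which 12 (1.86%) were at least 10 points higher in cluster 5 and 41 (6.35%) at least 10 points lower, with a median of 0.2. The balance of these counts depends on the scale, since a limit of 2-fold odds gave 64 genes higher and 35 lower. The core histone Hist1h2ae (52.6% in cluster 5, 8.5% in other cells) and the linker histone Hist1h1a (50.8%, 7.6%) were not listed for cluster 9. Hist1h2bc was the exception among the 7, with 57.8% inside cluster 5 and 75.0% outside. Against cluster 6, 3 of the 7 were lower in cluster 5 and none higher, with a median of -8.3. Of all genes compared with cluster 6, 22.8% were lower and 28.2% higher, and 7 genes are too few to set against those shares.

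Histone chaperones and chromatin maintenance genes mostly lay within 10 points of cluster 6 where listed. Of 30, 23 were listed for cluster 5, with a median difference of 36.5. Uhrf1, which reads hemimethylated DNA after the fork, was at 68.9% in cluster 5 and 10.5% in other cells, the maintenance methylase Dnmt1 at 86.7% and 30.3%, the remodeller Hells at 77.4% and 16.8% and the histone chaperone Nasp at 92.1% and 41.5%. Slbp, which binds the histone stem-loop, was at 79.5% and 32.0%. Within 10 points of cluster 6 lay 19 of 20 genes, the exception being Hat1, a histone acetyltransferase (80.6% and 70.2%). Of all genes compared with cluster 6, 28.2% were at least 10 points higher in cluster 5 and 22.8% lower. Within 10 points of cluster 9 lay 13 of 13. That is near the share of all genes compared with cluster 9, of which 1.86% were higher and 6.35% lower.

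The knocked-out genes were looked up among the high mobility group genes, of which 3 of 9 were listed. Hmgn1 was detected in 98.6% of cluster 5 and 85.2% of the other cells, with 98.7% in cluster 6 and 98.6% in cluster 9. Hmgn2 had no entry in cluster 5 and was listed for cluster 6 alone, at 48.3%. Hmgb2, a DNA-bending protein of dividing cells, was at 97.5% in cluster 5 and 46.9% in other cells, and Hmgb1 at 99.8% and 88.4%. Over all cells Hmgn1 was detected in 86.4%, although 4 of the 8 samples carry the label Hmgn1-/- and Hmgn2-/-. The pooled values thus show no absence of the Hmgn1 transcript, and they do not separate the genotypes. The paper reports that RNA sequencing found no transcripts of the deleted exons, and that western blots found neither protein in DKO cells. Where the captured 3′ end lies relative to the deleted part, and how many cells each genotype gave, is not given in the sources used here.

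Regulators of the cycle were listed for cluster 5 in 13 of 32 cases, with a median difference of 41.2. The S phase cyclins Ccne1 and Ccne2 were at 62.5% and 53.6% in cluster 5 and at 13.9% and 7.7% in other cells, and in cluster 6 they stood at 52.1% and 55.5%. Ccna2, which acts from S phase into G2, was at 63.1% in cluster 5, 75.6% in cluster 6 and 78.8% in cluster 9. Ccnb1, the cyclin of mitotic entry, had no entry in cluster 5 but stood at 57.8% in cluster 6 and 82.0% in cluster 9. Against cluster 6, Ccne1 was 1 of 9 shared regulators at least 10 points higher in cluster 5 and Ccna2 the 1 at least 10 points lower, while Ccne2 was among the 7 within 10 points. Of all genes compared, 28.2% were higher and 22.8% lower.

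Genes of G2 and M phase were frequent in cluster 5, but less so than in clusters 6 and 9. Of 54 on the list, 53 were in the table, 38 were listed for cluster 5 and 50 each for clusters 6 and 9. The 38 had a median detection of 70.2% in cluster 5 and 16.5% outside, and a median difference of 41.6. Compared with cluster 6, 16 of 37 were at least 10 points lower in cluster 5 and none higher, with a median of -8.4, where 22.8% of all genes compared were lower and 28.2% higher. Compared with cluster 9, 22 of 37 were lower and 1 higher, with a median of -12.6, where 6.35% of all genes compared were lower. The gene that was higher was Top2a, at 90.7% and 78.9%.

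The 10 genes furthest below cluster 9 all belong to division. Cdca3, which triggers mitotic entry, was at 55.1% in cluster 5 and 89.9% in cluster 9, Hmmr, a spindle protein, at 57.9% and 90.7% and Cenpf, a kinetochore protein, at 58.2% and 86.4%. Bub1b, a checkpoint kinase, was at 38.5% and 65.9%, Tacc3, which stabilises spindle fibres, at 52.6% and 79.7% and the kinetochore motor Cenpe at 57.3% and 83.9%. The others were Dlgap5 (42.6% and 66.7%), Pimreg (35.8% and 58.7%), Racgap1 (59.5% and 81.5%) and Anln (65.1% and 85.3%), the last 2 of which act at the cleavage furrow. Each of these genes was nonetheless at least 10 points more frequent in cluster 5 than in all other cells.

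The genes of the G2 and M phase list without an entry in cluster 5 numbered 15. They included Cdc20, an activator of the anaphase-promoting complex (49.8% in cluster 6 and 86.6% in cluster 9), the centromeric histone Cenpa (63.1% and 95.7%) and the cyclin Ccnb2 (55.8% and 85.3%). Of the 15, 11 were listed for both clusters 6 and 9, 2 for cluster 6 and not 9, and 2 for cluster 9 and not 6. Spindle, kinetochore and cytokinesis genes, which overlap the former list, were at least 10 points lower than in cluster 9 in 21 of 36 cases and higher in 1, and lower than in cluster 6 in 16 of 37, beside 6.35% and 22.8% of all genes compared that were lower. That higher gene was Cenph, an inner kinetochore subunit, at 65.6% and 51.8%. Cohesin and condensin genes gave 5 lower of 12 against cluster 6 and 1 lower of 7 against cluster 9, too few to set against the same shares.

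Beyond the histones, 9 genes were at least 10 points more frequent in cluster 5 than in cluster 9, among them Gins2 (78.0% and 56.4%), Ezh2, the H3K27 methylase (78.5% and 62.9%), Usp1 (88.9% and 74.8%), Cenph (65.6% and 51.8%), Rrm2 (86.2% and 73.2%), Dut (95.6% and 82.6%) and Dnajc9, a histone co-chaperone (84.1% and 71.7%). Top2a (90.7% and 78.9%) and Rrm1 (90.1% and 78.8%) were the others. Apart from Cenph and Top2a, these act in DNA copying, nucleotide supply or chromatin.

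Outside the cell cycle, clusters 5 and 6 differed in many genes. The genes most in excess over cluster 6 encode contractile and matrix-linked proteins. Myl9, a myosin light chain of stress fibres, was at 90.1% in cluster 5 and 3.1% in cluster 6, and clusters 9, 0, 1 and 7 had 88.1%, 89.0%, 72.3% and 69.9%. Tagln (transgelin) was at 98.4% and 20.9% in clusters 5 and 6, Acta2 (smooth muscle actin) at 98.1% and 23.2% and Tpm2 (tropomyosin) at 96.5% and 23.1%. Of the others, Ccn2, a matricellular protein, was at 87.5% and 11.7%, its relative Ccn4 at 87.9% and 16.4%, the actin-binding Nexn at 73.7% and 2.4%, the membrane proteins Emp3 at 94.8% and 14.1% and Tm4sf1 at 79.7% and 7.6%, and the annexin Anxa3 at 92.7% and 20.7%. Tagln was widely detected elsewhere, in 97.8% of cluster 9, 97.7% of cluster 0, 95% of cluster 1, 89.5% of cluster 7 and 84.4% of cluster 3.

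In the opposite direction stood genes of differentiating fat cells. A2m, a secreted protease inhibitor, was at 1.5% in cluster 5 and 78.5% in cluster 6, and at 82.4% in cluster 2. Cd36, the fatty acid transporter, was at 2.4% and 78.2% in clusters 5 and 6, at 3.5% in cluster 9 and at 99.8% in cluster 11. Car3, a carbonic anhydrase abundant in fat, was at 1.9% and 71.5%, with 2.1% in cluster 9 and 94.6% in cluster 11. Rbp4, a retinol carrier secreted by fat, was at 20% and 86.7%, the imprinted zinc-finger gene Peg3 at 17.6% and 81.4%, the collagen chain Col5a3 at 24.9% and 83.1% and the adipokine gene Apln at 19.1% and 77.8%. The last of the 10 were the lubricin gene Prg4 (10.5% and 67.5%), Folh1, a peptidase (2.4% and 59.5%), and Arxes2, a gene of adipocyte differentiation (17.5% and 74.4%).

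**Figure D3:**
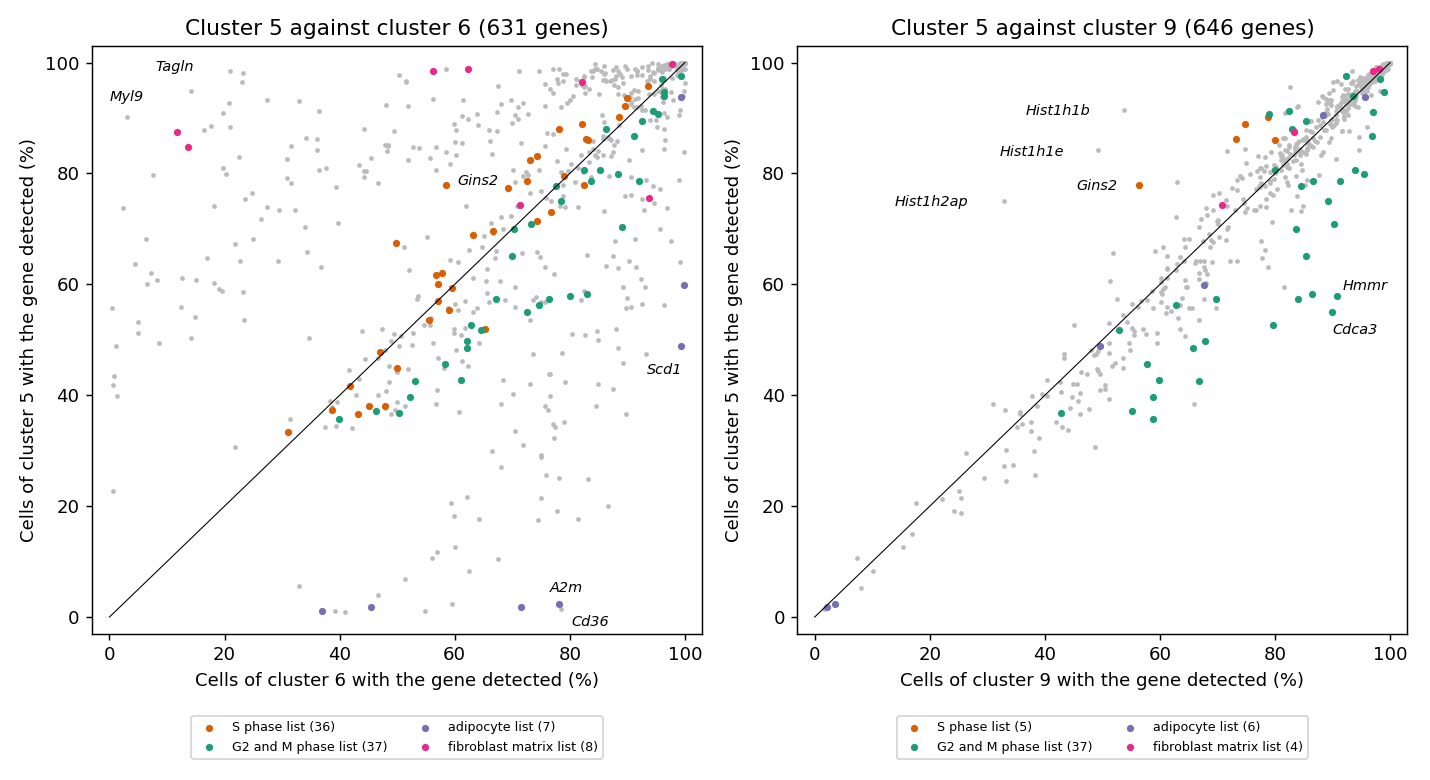
Detection in cluster 5 (vertical axis, percent of cells) against cluster 6 (left, 631 genes) and cluster 9 (right, 646 genes), 1 point per gene listed for both, with a line of equal detection and 4 gene lists in colour. Against cluster 6 the points spread to both corners, from Myl9 at 90.1% and 3.1% to A2m at 1.5% and 78.5%, and against cluster 9 most lie on the line.

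The adipocyte list went mostly the same way. Of 14 adipocyte genes, 11 were listed for cluster 5, of which 8 were at least 10 points lower than in other cells and 1 higher, with a median of -15.2, beside 5.87% and 72.1% of all entries. Adipoq (adiponectin) was at 2.7% in cluster 5 and 20.3% in other cells, and Plin1, a lipid droplet coat protein, at 1.9% and 17.1%. Fabp4, a fatty acid carrier, was at 59.9% in cluster 5, 67.7% in cluster 9 and 99.9% in cluster 6, and the desaturase Scd1 at 48.9%, 49.6% and 99.4%. The higher one was Fabp5, at 93.7% and 82.4%. Against cluster 6, 6 of 7 genes were lower in cluster 5, beside 22.8% of all genes compared, with a median of -43.6, and against cluster 9 none of 6 differed by 10 points. Plin1 and Cd36 were therefore detected in few cells of cluster 5, while Fabp4 and Scd1 were detected in a large share of its cells.

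Fibroblast matrix genes were listed for cluster 5 in 8 of 25 cases. Of these, 5 were at least 10 points higher than in other cells, too few genes to set against the 72.1% of all entries. Thbs1 (thrombospondin) was at 98.5% in cluster 5, 71.4% in other cells and 56.3% in cluster 6, and Timp3, a metalloproteinase inhibitor, at 84.8%, 47.3% and 13.7%. Col6a2, a microfibril collagen, was lower in cluster 5 than in cluster 6, at 75.6% and 93.8%. Of the 8 genes, 5 were at least 10 points higher in cluster 5 than in cluster 6 and 1 lower. That is too few to set against the 28.2% and 22.8% of all genes compared. Cluster 6 listed 18 of the 25 matrix genes. Among them, Sparc (100%), Col1a1 (98.8%) and Fn1 (98.2%) had no entry in cluster 5. Of 13 preadipocyte genes, 7 were in the table and 2 were listed for cluster 5, 1 of them at least 10 points higher. Itgb1 (integrin beta 1) was at 99.6% in cluster 5 and 85.3% in other cells. Pdgfra, a receptor of stromal progenitors, was at 69.4% and 63.9%. Mmp3, F3, Cd24a, Ly6a and Pdgfrb had no entry in cluster 5. These are too few to set against the 72.1% of all entries. Both genes of the differentiating list, Col5a3 (24.9% and 39.1%) and Serpina3n (36.7% and 57.7%), were lower in cluster 5. The thermogenic list had 1 of 9 genes in cluster 5, Cox7a1, a respiratory chain subunit of brown fat, at 7.0% and 15.4%, and of the AP-1 and immediate early list Egr1 (92.9% and 84.3%) and Junb were the 2 listed of 12.

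Several of the 10 genes furthest below all other cells are fat cell genes. The first were Cd36 (2.4% and 32.1%) and Car3 (1.9% and 27.8%), followed by Slfn5, a Schlafen family gene (30.6% and 55.9%), A2m (1.5% and 26.1%), Cdo1, a cysteine-catabolic enzyme (6.3% and 29.9%), the triglyceride lipase Pnpla2 (15% and 37.1%), Rbp4 (20% and 41.4%), Serpina3n (36.7% and 57.7%), guanine deaminase (Gda, 24.6% and 44.7%) and Prg4 (10.5% and 30.4%). Slfn5 stood at 86.0% in cluster 1 and 82.7% in cluster 3, where Cd36 was at 1.0% and 1.8%, and Serpina3n stood at 64.1% in cluster 1.

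Signs of cell quality and of other cell types were read beside these results. Of the 13 mitochondrially encoded genes, 8 were listed for cluster 5, each within 10 points of the other cells, between -3.7 and 8.2. Against cluster 6, mt-Nd6 was at 47.4% and 93.3% and mt-Atp8 at 67.8% and 97.6%, and their part in the differences from cluster 6 was not tested. Of 79 cytosolic ribosomal protein genes in the table, 6 were listed for cluster 5, 1.2 to 5.5 points above the other cells. None of 7 immune or 5 glial marker genes was in the table, and of 6 endothelial markers Egfl7 alone was, with no entry in cluster 5.

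A count of where the 1057 genes were also listed closes the description. Cluster 6 shared 631 of them, which is 59.7% of the entries of cluster 5 and 44.6% of the 1416 of cluster 6. Cluster 9 shared 646, which is 61.1% of those of cluster 5 and 68.9% of the 938 of cluster 9. A total of 49 genes (4.64%) were listed for cluster 5 and for no other cluster. Of these, 48 were at least 10 points more frequent in it, beside 72.1% of all its entries. The number of genes listed for a single cluster is not given here for the other clusters. Genes of replication among them were Chaf1b and Dscc1, given above, E2f1, the transcription factor of S phase entry (60.9% and 18.8%), Gins4, a GINS subunit (73.3% and 31.5%), Prim2, a primase subunit (42.9% and 11.2%), the checkpoint kinase Chek1 (35.7% and 6.9%), Timeless, a fork protection factor (34.7% and 6.7%), and Mybl2, a cell cycle transcription factor (34.3% and 3.4%). Haus4, an augmin subunit of the spindle (53.6% and 13.8%), and Mlf1 (48.6% and 9.0%) were also among them, and Arhgef12 was the gene under 10 points (61.0% and 58.9%). Apart from Chaf1b, Dscc1 and Ubr7, these genes were chosen after their values had been seen.

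**Figure D4:**
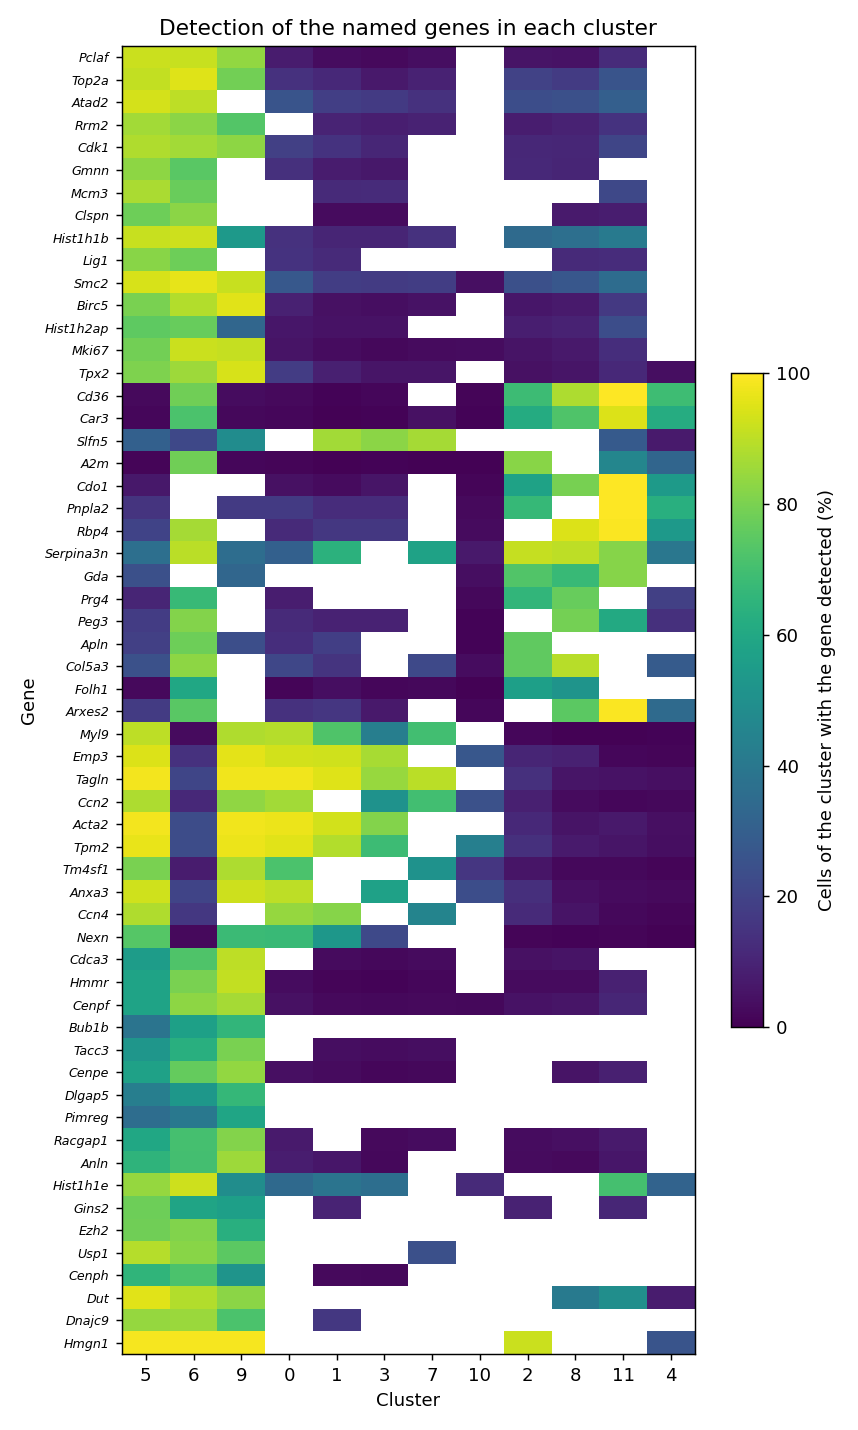
Detection of 58 named genes (rows) in each of the 12 clusters (columns), as the percent of cells with the gene detected on a colour scale from 0 to 100, with white where the table has no entry. The replication and division genes are high in clusters 5 and 6, with several replication genes such as Mcm3 not listed for cluster 9. The contractile gene Myl9 is high in clusters 5, 9, 0, 1 and 7 and at 3.1% in cluster 6. Cd36 and Car3 are low in clusters 5, 9, 0, 1, 3 and 10 and high in clusters 6, 2, 8, 11 and 4.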

How the data were processed

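Single-cell RNA was captured with a 3′ chemistry from 8 samples, and groups were taken from the sample labels. The authors mapped reads to mm10 with Cell Ranger 6.0.0, equalized read depth over captures, removed cells with few genes or many mitochondrial reads and then immune, glial and endothelial cells, clustered the rest in Seurat and compared each cluster with all remaining cells. The values used were the deposited fractions of cells in which a gene was detected, for the cluster's cells and for those of the other clusters, printed here as percents and given by the authors over the pooled cells of all samples. The table also holds the authors' log2 fold changes, p-values and adjusted p-values, which were not used. The study's methods do not mention doublets, droplets that caught several cells, and a table without single cells allows no search for them. It holds 0 columns of values for a single sample.

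Cluster shares were solved by least squares, since a gene's detection over all cells must be the same from every cluster. The 10 genes listed for all 12 clusters gave shares that summed to 99.9%, and with them the detection over all cells agreed within 0.13 percentage points for the 2690 genes listed more than once. The solver was tested on simulated data. A difference was counted from 10 percentage points. Detection depends on depth, and the depth and cell number per cluster are unknown, so no interval was given. Symbols that a spreadsheet had turned into dates were restored for 2 genes of cluster 5, and 9 such entries elsewhere were left out. The clusters were formed from these same genes, so no test was run. Genes were named as the 15 with the largest and the 10 with the most negative difference against all other cells, the 10 largest each way against clusters 6 and 9, members of the lists, Hmgn1 and Hmgn2. Members and lists were chosen with earlier results of these data known. Promoters came from RefSeq (GRCm38.p6, the build called mm10), matched by symbol. Python 3.11.15, numpy 2.4.6, pandas 2.3.3 and matplotlib 3.10.9 were used.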

Additional observations from a re-analysis of the deposited data

How the results depend on the processing

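No paired analysis was possible because values were pooled over all samples, for which reason no replicate could be left out either. No single value changed sign under the alternatives run, but the balance of genes against cluster 9 turned. The share of cluster 5 came out at 8.86% from genes listed for at least 2 or at least 8 clusters and at 8.82% with the shares forced to sum to 100%. Limits of 5 and 20 points in place of 10 gave 99 and 9 genes detected in fewer cells of cluster 5, 41 and 4 in more cells of it than of cluster 9, and 103 and 10 in fewer than of cluster 9, and a limit of 20 points gave 91 in fewer than of cluster 6. A limit of 2-fold odds gave 64 in more and 35 in fewer cells than of cluster 9, where the 10-point limit gave 12 and 41. Genes on both cycle lists or on a list of 8 proliferation genes were also left out, while genes shared with the lists by role were kept. The median difference was then 50 points for the S phase list and 40.2 for the G2 and M phase list. The other 23 values stayed within 1.5 times of the value reported or kept their direction. The fits without clusters 4 and 10 were chosen after the data had been seen. The unknown depth per cluster limits every detection value, since a deeper library detects a gene in more cells.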
